A study of Mus musculus with 18 samples.

Results

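Loss of CD45 in group 2 innate lymphoid cells (ILC2) was compared between lung and bone marrow through 1 contrast: CD45 KO minus control in lung, minus the mean of the same difference in mature and in immature marrow ILC2. A value above 0 therefore says that the change from control to CD45 KO was more positive in lung than in marrow, whichever tissue had more transcript, and a value below 0 says the reverse. The contrast drew on 18 of the 18 libraries of the series, 6 from lung and 12 from marrow. Genes on chromosomes X and Y were left out. All values are on the log2 scale with a standard error (SE) unless they are given as counts or as CPM, the counts scaled to a common library size.

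The study counted transcripts in ILC2 sorted from mouse bone marrow and lung, in 6 groups of 3 libraries. The controls are labelled Rag2 KO and the CD45-deficient mice CD45 KO x Rag2 KO, so that both genotypes lack T and B cells through the Rag2 deletion, and no group with intact Rag2 was included. Marrow ILC2 were labelled mature or immature and lung ILC2 carried neither label. The sources used here do not give the gates, the ages of the mice or whether the 3 libraries of a group came from different mice, so the p-values measure the spread between these libraries, which may be technical. The labels give 200 cells per sample and the extract protocol 100 cells per tube.

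CD45, encoded by Ptprc, is a transmembrane tyrosine phosphatase of blood cells that removes phosphate from Src-family kinases, the enzymes that start signalling at antigen receptors and other immune receptors. ILC2 have no antigen receptor and respond instead to alarmins and cytokines such as IL-33, through the receptor encoded by Il1rl1, and IL-7. In lung they sit in the tissue and make type 2 cytokines, while the marrow holds their precursors and cells on the way to the tissue.

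The libraries held between 68077 and 122250 counts, and 7189 to 8793 genes were detected in each. Of the genes off X and Y, 1858 had enough counts to be tested, with a median of 12.6 counts per library. All 12 ILC2 markers examined were tested, whereas Cd4, Cd8a and Cd8b1 of T cells, Ms4a1, Pax5 and Jchain of B cells, and Ncr1, Eomes, Tbx21 and Klra8 of NK cells and ILC1 were at 0. Other markers of these cells had few counts: the whole list summed to 0 to 3 counts per marrow library and 1 to 6 per lung library for T cells (Cd3g was found in all 6 lung libraries), to 0 to 4 per library for B cells and to 0 to 5 for NK cells and ILC1. Their part in the results was not tested. The mature control library 1 held 181 counts of neutrophil markers, such as S100a8 (75 counts) and S100a9 (67 counts), and the lung CD45 KO library 1 held 30 counts of macrophage markers, such as Lyz2 (8 counts). The mature CD45 KO library 1 stood apart from its group: over genes, its chi-square per degree of freedom against the other 2 was 4.40 and 4.82, against 1.16 to 2.33 for all other pairs within a group.

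Lung and marrow also differed in sex-linked transcripts. Xist, the RNA of the inactive X chromosome, was at 52 to 105 counts in each of the 6 lung libraries and at 0 in the 12 marrow libraries. The 4 Y-linked genes Ddx3y, Eif2s3y, Kdm5d and Uty summed to 10 to 32 counts in the marrow libraries and to 0 in the lung libraries. Both genotypes had the same pattern within a tissue. Tissue and the sex of the mice therefore cannot be told apart in any lung against marrow value given here. As the samples are bulk libraries, fewer cells of a type and less RNA per cell cannot be told apart either.

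The sequences before the start of genes on both sides of the contrast are shown because the CD45 effect on these genes differed between the 2 tissues. The windows run from 250 bases before to 50 after the start in RefSeq (build GRCm38.p6), and 16 of the 24 genes that passed the contrast have one. The first 250 bases of 3 windows are given 5′ to 3′ in the direction of the transcript. Vim (chr2:13574061-13574310, + strand) encodes the intermediate filament vimentin, Actg1 (chr11:120348496-120348745, - strand) encodes gamma-actin, and Satb1 (chr17:51832648-51832897, - strand) encodes a chromatin organiser. Capitals mark a match to the NF-kB motif in Vim, to the CArG box of serum response factor in Actg1, and to the EGR motif in Satb1.
Vim: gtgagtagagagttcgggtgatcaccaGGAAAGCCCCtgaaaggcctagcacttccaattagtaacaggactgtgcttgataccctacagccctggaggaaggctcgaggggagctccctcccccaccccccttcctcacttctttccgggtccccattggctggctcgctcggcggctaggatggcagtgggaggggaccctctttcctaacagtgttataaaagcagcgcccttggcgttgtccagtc
Actg1: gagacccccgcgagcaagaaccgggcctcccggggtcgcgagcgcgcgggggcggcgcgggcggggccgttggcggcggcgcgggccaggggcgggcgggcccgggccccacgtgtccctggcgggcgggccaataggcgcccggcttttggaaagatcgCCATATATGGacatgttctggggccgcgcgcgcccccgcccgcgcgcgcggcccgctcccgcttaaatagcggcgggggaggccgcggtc
Satb1: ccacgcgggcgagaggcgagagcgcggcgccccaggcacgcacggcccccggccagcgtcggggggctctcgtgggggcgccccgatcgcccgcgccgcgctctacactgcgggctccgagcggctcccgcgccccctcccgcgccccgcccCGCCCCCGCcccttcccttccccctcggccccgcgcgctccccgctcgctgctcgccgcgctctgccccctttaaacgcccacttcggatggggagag

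Lmo4, the gene with the smallest p, has 2 overlapping EGR matches just past its RefSeq start, and 30 bases around them (chr3:144205211-144205240, - strand) are given here with the matches in capitals.
Lmo4: gggcgcgGCGGGGGCGGGGGCGcgtacaaa

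Each motif was searched on both strands of the 300-base windows. Shares are given over all windows and over tested genes with a window, where a gene counted as matched if any of its windows matched. The EGR motif (GCGTGGGCG or GCGGGGGCG) matched 3 of the 16 passing genes with a window, Lmo4, Actg1 and Satb1. It matched 3.47% of all 32851 windows and 9.0% of the 1434 tested genes with a window. The NF-kB motif matched Vim alone among the 16 genes, against 4.51% of all windows and 7.95% of the tested genes with a window. It was not found in the window of Birc3, which says only that these letters are not there. The CArG box matched the window of Actg1, against 1.63% and 1.6%. GAS (TTCNNNGAA) matched Tnfrsf18 and Shisa5, against 8.3% and 8.16%, the interferon-stimulated response element matched D17H6S56E-5 and Shisa5, against 3.44% and 4.32%, and the cyclic AMP response element (TGACGTCA) matched Shisa5, against 1.79% and 4.04%. AP-1 (TGACTCA or TGAGTCA) matched none of the 16, against 5.2% and 4.81%. These are letter matches and not measured binding.

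The CD45 effect differed between lung and marrow for 24 of 1858 genes (1.29%) at a Benjamini-Hochberg adjusted p under 0.05 (quasi-likelihood test of edgeR, adjusted over all genes tested). The difference was above 0 for 16 genes (0.861%) and below 0 for 8 (0.431%), and 243 genes (13.1%) had an unadjusted p under 0.05. The 16 included regulators of transcription (Lmo4, Satb1, Ikzf3, Nfkb1, Jund), receptors and surface proteins (Ifngr1, Icos, Tnfrsf18, Kit, Gpr132, Ly6a), the apoptosis inhibitor Birc3 and gamma-actin (Actg1). The 8 included Vim, S100a4, Rexo2, Pisd-ps3, Cd52, Hsp90aa1 and Ccr2. For comparison, CD45 KO differed from control for 48 genes (2.58%) in lung alone, 39 of them higher (2.1%), and for 55 genes (2.96%) over both marrow stages, 27 of them higher (1.45%).

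**Figure D1:**
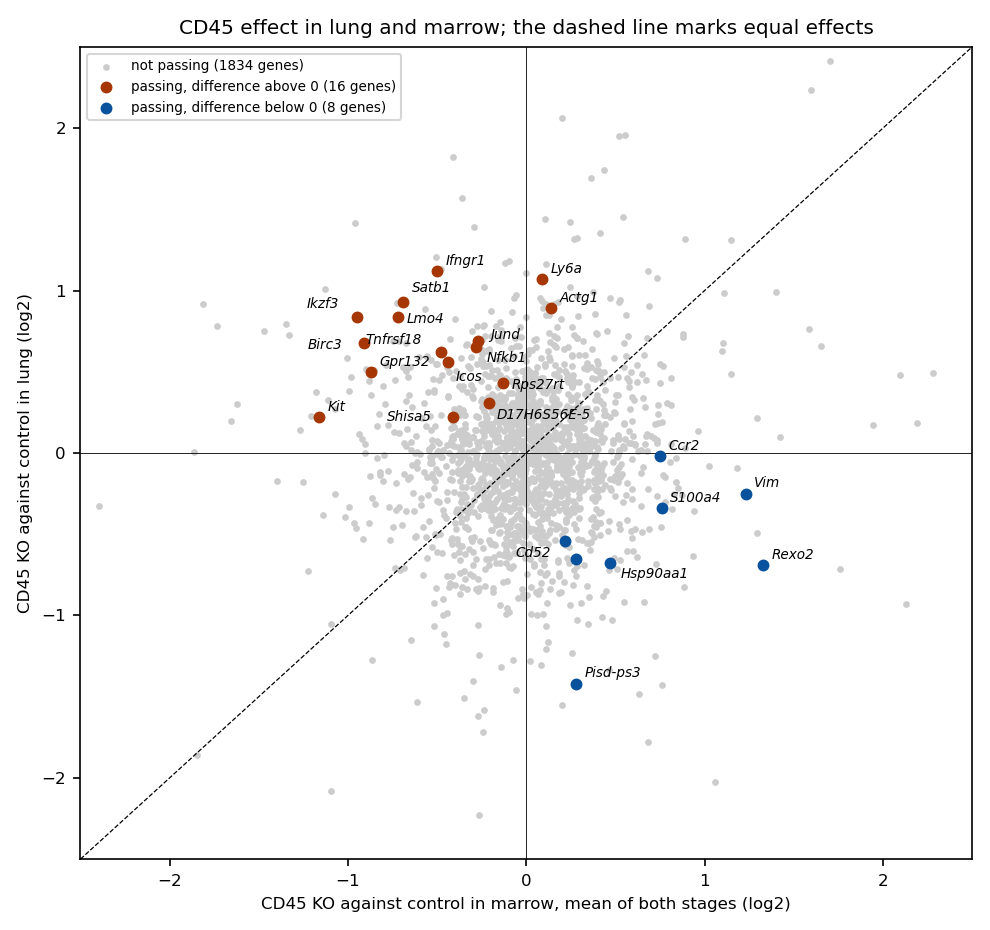
CD45 KO against control in lung (vertical axis, log2) and in marrow as the mean of both stages (horizontal axis, log2), 1 point per tested gene. Red points are the 16 genes and blue points the 8 genes that passed for lung minus marrow, grey points the other 1834, and 3 genes lie outside the plotted range. Most passing genes sit in the upper left or lower right, where the effects have opposite signs.

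The effect in lung and the effect in marrow had opposite signs for 22 of the 24 genes, against 47.7% of all tested genes. A gene was called on the difference of these 2 values, so opposite signs are favoured by the call itself and the count is a description. For 14 genes the value was above 0 in lung and below 0 in marrow, and for 8 the reverse. The same sign in both tissues was seen for Actg1 and Ly6a. Among the 16 genes with a difference above 0, the median was 0.67 in lung and -0.46 in marrow. Among the 8 below 0 it was -0.59 in lung and 0.61 in marrow. The lung CD45 KO and control libraries did not overlap for 19 of the 24, against 19.8% of all tested genes, and these libraries are also part of the call. Tested within each tissue, 10 of the 24 passed in lung and not marrow, 9 in marrow and not lung, 1 (Lmo4) in both, and 4 in neither.

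The count depended on single libraries. It was 9 without lung control library 2 or without lung CD45 KO library 1, 13 without lung CD45 KO library 3, 14 without immature control library 1 and 15 without lung control library 3. Without mature control 1, mature CD45 KO 1 and lung CD45 KO 1 together it was 14, of which 11 were among the 24, and the 13 lost genes included Actg1, Ifngr1, Icos, Ly6a, Birc3 and Satb1. No gene of the 24 changed direction in any of 27 other fits, and Lmo4, Vim, S100a4, Pisd-ps3, Actg1 and Nfkb1 kept their call whichever single library was left out.

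Among the transcription regulators, Lmo4 stood first. Lmo4 encodes a LIM-only cofactor that is abundant in ILC2. In lung it was at 1530, 1160 and 1740 CPM in the controls and at 2530, 2790 and 2620 CPM in CD45 KO. In marrow, mature controls had 1100, 1040 and 1110 CPM and mature CD45 KO 1020, 505 and 581 CPM. Immature controls had 1330, 1140 and 964 CPM and immature CD45 KO 729, 658 and 641 CPM. The CD45 KO libraries were thus all above the controls in lung and all below them within each marrow stage, although the mature CD45 KO library 1, which stood apart, overlapped the immature controls. Lmo4 rose by 0.84 ± 0.14 in lung (edgeR adjusted p = 2.68e-05) and fell by 0.72 ± 0.12 in marrow (edgeR adjusted p = 3.61e-05), a difference of 1.55 ± 0.19 (edgeR adjusted p = 3.14e-09). Its difference was 1.51 ± 0.22 against the mature and 1.60 ± 0.22 against the immature stage.

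Nfkb1 encodes the p105 precursor and p50 subunit of NF-kB. It was at 430, 567 and 466 CPM in lung controls and at 765, 763 and 769 CPM in lung CD45 KO. Over the 6 marrow controls it ran from 372 to 471 CPM (median 442) and over the 6 marrow CD45 KO libraries from 315 to 394 CPM (median 358). The lung groups did not overlap and the marrow groups did. The effect was 0.65 ± 0.17 in lung, where Nfkb1 rose (edgeR adjusted p = 0.0185), and -0.28 ± 0.14 in marrow (edgeR adjusted p = 0.294). The difference was 0.93 ± 0.22 (edgeR adjusted p = 0.0127).

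Jund, a subunit of the AP-1 transcription factor, was at 838, 738 and 914 CPM in lung controls and 1490, 1190 and 1390 CPM in lung CD45 KO, which did not overlap. Marrow controls ran from 149 to 289 CPM (median 243) and marrow CD45 KO from 152 to 251 CPM (median 197). The difference was 0.96 ± 0.24 (edgeR adjusted p = 0.0157), from 0.69 in lung and -0.27 in marrow. Satb1 was scarcer in lung than in marrow: 66.1, 85.6 and 70.3 CPM in lung controls and 153, 149 and 121 CPM in lung CD45 KO, against 170 to 299 CPM in marrow controls (median 246) and 69.0 to 226 CPM in marrow CD45 KO (median 147). The lung and marrow libraries of Satb1 did not overlap in controls and did overlap in CD45 KO. Its difference was 1.62 ± 0.43 (edgeR adjusted p = 0.037). Ikzf3, which encodes the zinc finger protein Aiolos, had a difference of 1.80 ± 0.48 (edgeR adjusted p = 0.0333). It was at 143, 96.3 and 87.9 CPM in lung controls and 278, 167 and 148 CPM in lung CD45 KO, and at a median of 104 CPM in marrow controls and 50.6 CPM in marrow CD45 KO. The marrow groups of Ikzf3 overlapped. The lung groups were separated only narrowly, by 148 CPM (11 counts) in CD45 KO library 3 against 143 CPM (13 counts) in control library 1. Ikzf3 had a mean of 9.67 counts per library.

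**Figure D2:**
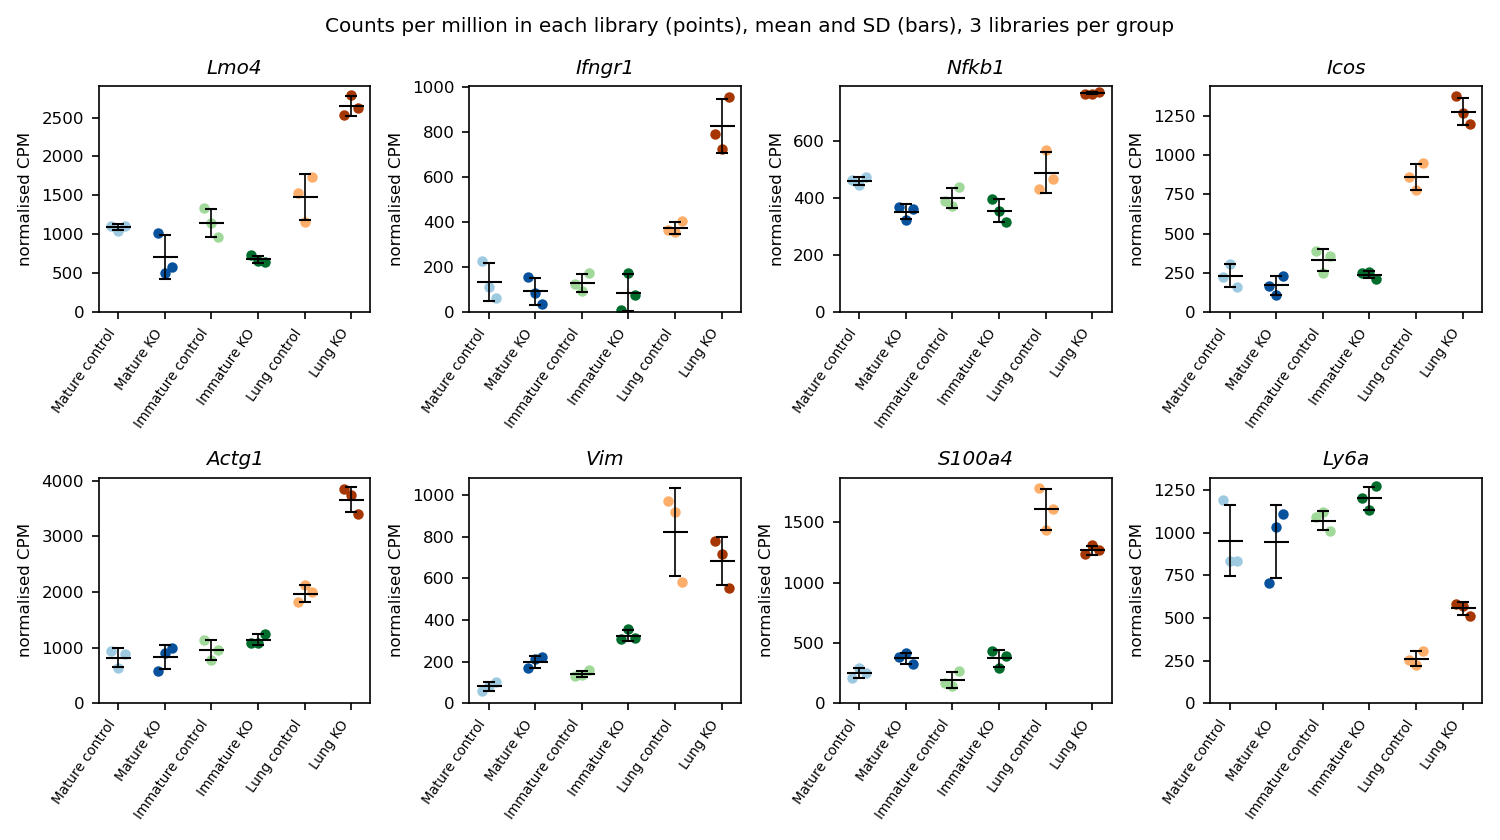
CPM of 8 passing genes in each library (points), with the group mean (long bar) and SD (whiskers), for control and CD45 KO in mature marrow, immature marrow and lung, 3 libraries per group. Lmo4 is higher in lung CD45 KO and lower in both marrow CD45 KO groups, Vim and S100a4 are higher in both marrow CD45 KO groups, and Actg1 and Ly6a are higher in lung CD45 KO.

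Receptors and other surface proteins made up a second set. Ifngr1 encodes the ligand-binding chain of the interferon-gamma receptor. It was at 364, 353 and 404 CPM in lung controls and at 793, 726 and 958 CPM in lung CD45 KO. Mature marrow ILC2 had 224, 111 and 60.2 CPM in controls and 155, 84.2 and 35.2 CPM in CD45 KO. Immature marrow ILC2 had 122, 93.0 and 171 CPM in controls and 9.86, 173 and 73.5 CPM in CD45 KO. The lung groups were apart, and the marrow groups overlapped at both stages with a wide spread. Ifngr1 rose by 1.12 ± 0.22 in lung (edgeR adjusted p = 0.000623), the marrow value was -0.50 ± 0.31 (edgeR adjusted p = 0.455), and the difference was 1.62 ± 0.38 (edgeR adjusted p = 0.0127). Without mature control library 1 the adjusted p of that difference was 0.0857. Ifngr2, the second chain of the receptor, had a difference of -0.86 ± 0.69 that did not pass (edgeR adjusted p = 0.677).

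Icos and Tnfrsf18 encode costimulatory receptors, ICOS and GITR, that ILC2 carry at their surface. Icos was at 860, 781 and 950 CPM in lung controls and 1380, 1270 and 1200 CPM in lung CD45 KO, and at a median of 277 CPM in marrow controls and 219 CPM in marrow CD45 KO. It rose in lung by 0.56 ± 0.15 and the difference was 1.0 ± 0.24 (edgeR adjusted p = 0.0157). Tnfrsf18 was at 364, 278 and 457 CPM in lung controls and at 431, 623 and 634 CPM in lung CD45 KO, and its medians were 265 CPM in marrow controls and 168 CPM in marrow CD45 KO. Neither tissue passed alone for Tnfrsf18 (0.62 in lung, -0.48 in marrow) and the difference was 1.10 ± 0.28 (edgeR adjusted p = 0.0197). For Tnfrsf18 the CD45 KO and control libraries overlapped in lung and over the 6 and 6 marrow libraries, while within each marrow stage they did not.

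Kit, the receptor for stem cell factor, and Gpr132, a G protein-coupled receptor, differed mainly through marrow. Kit was at 342, 417 and 422 CPM in lung controls and 501, 456 and 432 CPM in lung CD45 KO, whereas marrow controls had 73.2 to 122 CPM (median 109) and marrow CD45 KO 21.0 to 107 CPM (median 45). Kit fell by 1.16 ± 0.32 in marrow (edgeR adjusted p = 0.0227), the lung value was 0.22 ± 0.21 and the difference 1.38 ± 0.38 (edgeR adjusted p = 0.0416). The highest marrow CD45 KO value, 107 CPM, was that of mature library 1. Gpr132 fell by 0.87 ± 0.24 in marrow, from a median of 216 CPM to 98.8 CPM, and its lung value was 0.50 ± 0.20, for a difference of 1.37 ± 0.31 (edgeR adjusted p = 0.0113).

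Ly6a, the Sca-1 antigen and an interferon-inducible gene, was at 254, 225 and 308 CPM in lung controls and 584, 568 and 513 CPM in lung CD45 KO. In marrow it was more abundant, at a median of 1050 CPM in controls and 1120 CPM in CD45 KO. Ly6a rose by 1.07 ± 0.22 in lung (edgeR adjusted p = 0.000662), the marrow value was 0.09 ± 0.11, and the difference was 0.97 ± 0.24 (edgeR adjusted p = 0.0181). Cd52, a small glycosylphosphatidylinositol-anchored protein of lymphocytes, lay on the other side. It was at 860, 1220 and 906 CPM in lung controls and 626, 689 and 729 CPM in lung CD45 KO, which did not overlap. Its marrow medians were 619 and 722 CPM and the difference was -0.76 ± 0.20 (edgeR adjusted p = 0.0314).

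Ccr2, a chemokine receptor known for guiding the exit of monocytes from marrow, was changed in marrow and not detectably in lung. It was at 1610, 1450 and 1710 CPM in lung controls and 1360, 1750 and 1570 CPM in lung CD45 KO, with a lung value of -0.02 ± 0.15. In marrow it rose by 0.75 ± 0.15 (edgeR adjusted p = 0.000902), from 343, 291 and 401 to 1070, 539 and 616 CPM in mature and from 354, 403 and 464 to 404, 753 and 494 CPM in immature ILC2. The difference was -0.77 ± 0.22 (edgeR adjusted p = 0.0456). The highest of the marrow values, 1070 CPM, came from mature CD45 KO library 1. Ccr2 lost its call in 11 of the 18 fits that left out 1 library, the one without that library among them.

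Birc3 and Shisa5 are linked to cell death, as the inhibitor cIAP2, also an NF-kB target, and as a p53-induced endoplasmic reticulum protein. The 6 marrow CD45 KO libraries lay below the 6 marrow controls for both genes, with Birc3 at 47.7 to 123 CPM against 134 to 208 CPM and Shisa5 at 809 to 941 CPM against 1090 to 1270 CPM. Such a separation of 6 and 6 libraries was seen for 1.72% of all tested genes. In lung, Birc3 was at 143, 96.3 and 114 CPM in controls and 209, 205 and 148 CPM in CD45 KO. The difference was 1.59 ± 0.40 for Birc3 (edgeR adjusted p = 0.0197) and 0.63 ± 0.18 for Shisa5 (edgeR adjusted p = 0.0456).

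Genes of the cytoskeleton lay on both sides. Vim was at 970, 920 and 580 CPM in lung controls and 779, 717 and 553 CPM in lung CD45 KO, which overlapped. In mature marrow ILC2 it was at 59.6, 83.3 and 100 CPM in controls and 167, 211 and 220 CPM in CD45 KO. In immature marrow ILC2 it was at 133, 134 and 159 CPM in controls and 306, 355 and 315 CPM in CD45 KO. All 6 marrow CD45 KO libraries were above all 6 marrow controls and all were below every lung library. Vim rose by 1.23 ± 0.22 in marrow (edgeR adjusted p = 8.08e-05), the lung value was -0.25 ± 0.17 (edgeR adjusted p = 0.564), and the difference was -1.48 ± 0.28 (edgeR adjusted p = 0.00108).

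S100a4, a calcium-binding protein that acts on non-muscle myosin, followed the same order. It was at 1790, 1440 and 1610 CPM in lung controls and 1240, 1310 and 1270 CPM in lung CD45 KO. Mature marrow ILC2 had 209, 291 and 251 CPM in controls and 381, 413 and 326 CPM in CD45 KO, and immature marrow ILC2 166, 145 and 268 CPM and 434, 294 and 389 CPM. The CD45 KO libraries were below the controls in lung and above them in marrow, with no overlap in either tissue. S100a4 rose by 0.76 ± 0.17 in marrow (edgeR adjusted p = 0.00271), the lung value of -0.34 ± 0.14 did not pass (edgeR adjusted p = 0.204), and the difference was -1.10 ± 0.22 (edgeR adjusted p = 0.00179).

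Actg1 moved the other way. It was at 1810, 2120 and 2000 CPM in lung controls and 3840, 3740 and 3400 CPM in lung CD45 KO. Over the marrow it ran from 625 to 1130 CPM in controls (median 916) and from 584 to 1250 CPM in CD45 KO (median 1030). The lung groups were far apart and the marrow groups overlapped almost fully. Actg1 rose by 0.89 ± 0.13 in lung (edgeR adjusted p = 7.27e-07) and the difference was 0.75 ± 0.17 (edgeR adjusted p = 0.0113). The related Actb, beta-actin, had a difference of -0.26 ± 0.14 (edgeR adjusted p = 0.458).

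Of the remaining passing genes, Rexo2, a mitochondrial exonuclease for short RNA, was at 143, 150 and 149 CPM in lung controls and 125, 93.1 and 54.0 CPM in lung CD45 KO. In marrow it ran from 27.8 to 73.2 CPM in controls and from 105 to 168 CPM in CD45 KO, with no overlap between the 6 and the 6 libraries. Its difference of -2.03 ± 0.47 (edgeR adjusted p = 0.0113) was the largest in size among the 24 and rested on a mean of 10.1 counts per library. The heat shock protein Hsp90aa1 had a difference of -1.15 ± 0.32 (edgeR adjusted p = 0.0437), from -0.68 in lung and 0.47 in marrow. The marrow value averaged unlike stages. Mean CPM went from 237 to 432 in immature ILC2, without overlap, and from 311 to 336 in mature ILC2, with overlap. Pisd-ps3, a transcribed pseudogene whose counts could include reads from its relatives, had -1.70 ± 0.40 (edgeR adjusted p = 0.0113), from -1.42 in lung and 0.28 in marrow. The averaged marrow stages went opposite ways, with means from 76.1 to 140 CPM in mature and from 108 to 88.5 CPM in immature ILC2. Against the immature stage alone the difference was -1.16 ± 0.48 (edgeR adjusted p = 0.279). Its chromosome was listed as unknown, so X and Y could not be checked for it. Rps27rt, which is nearly identical to Rps27 and so uncertain, had 0.56 ± 0.15, and D17H6S56E-5, in the H2 region of chromosome 17, had 0.52 ± 0.14.

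**Figure D3:**
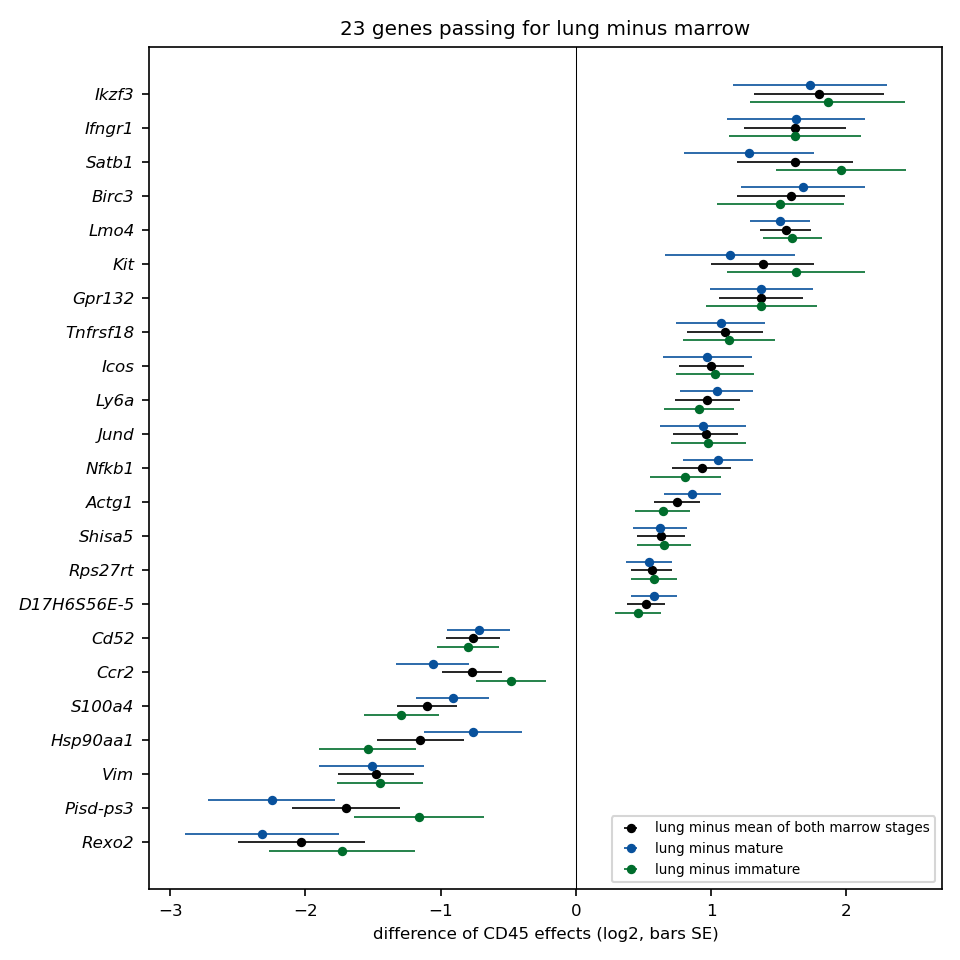
Difference of the CD45 effects (log2, bars SE) for 23 of the 24 passing genes, as lung minus the mean of both marrow stages (black), minus mature (blue) and minus immature (green). For each gene the 3 values lie on the same side of 0.

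All 24 genes had the same direction against each marrow stage, as did 73.2% of all tested genes. Both values share the lung libraries and the call rests on their mean, which favours one direction, so the count is a description. Against mature ILC2 alone 6 of 1858 genes (0.323%) passed and 10.2% had an unadjusted p under 0.05, and against immature ILC2 alone 7 (0.377%), and 6 of the 24 were among each. Between the mature and immature stages 0 genes passed in edgeR, and 0 in DESeq2, with 95 genes (5.11%) at an unadjusted p under 0.05. Of the 24 genes, 3 were among those 95, including Hsp90aa1 (mature minus immature -0.77 ± 0.33) and Pisd-ps3 (1.09 ± 0.54). Just outside the threshold of the main contrast were Syne1 (-1.80 ± 0.52), Drap1 (1.64 ± 0.47) and Rps7 (0.52 ± 0.15), each with an edgeR adjusted p of 0.0568.

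Ptprc served as the check of the genotype. It was at 628, 546 and 563 CPM in lung controls and 153, 112 and 229 CPM in lung CD45 KO. In marrow it ran from 253 to 541 CPM in controls and from 42.0 to 238 CPM in CD45 KO, and the highest value was again that of mature library 1. Ptprc fell by 1.86 ± 0.27 in lung and fell by 1.84 ± 0.21 in marrow, and the difference was -0.01 with an edgeR adjusted p that rounds to 1. No SE is given for that difference, since the SE used here is unreliable for a value so near 0. The deleted part of the gene is not described, so these counts could include transcripts of the undeleted part.

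Of a panel of ILC2 genes reported whether or not they passed, Icos, Kit and Lmo4 passed. The panel was chosen with earlier results of these data known, so these calls are a description. The transcription factors Gata3 and Rora had differences of 0.17 ± 0.16 and 0.50 ± 0.22, and the IL-7 receptor Il7r had -0.05 ± 0.22. Averaged over both marrow stages, the IL-33 receptor Il1rl1 fell by 0.49 ± 0.11 (edgeR adjusted p = 0.00271). Immature ILC2 went from 1510, 1540 and 1450 CPM in controls to 1030, 917 and 809 CPM in CD45 KO. Mature controls had 1460, 1500 and 1650 CPM and mature CD45 KO 1750 (library 1), 1090 and 1090 CPM, which overlapped. Il1rl1 had a lung value of 0.06 ± 0.15, and the difference of 0.55 ± 0.19 did not pass (edgeR adjusted p = 0.117). The IL-2 receptor Il2ra had 0.50 ± 0.21, Thy1 -0.23 ± 0.30 and Klrg1 0.45 ± 0.64, and none of them passed.

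For the type 2 cytokines the contrast had almost nothing to work with in marrow. Il5 summed to 443 counts over the 6 lung libraries and to 8 over the 12 marrow libraries, and Il13 to 99 and 1. In lung, Il5 was at 573, 706 and 475 CPM in controls and 765, 1320 and 998 CPM in CD45 KO, and Il13 at 88.2, 193 and 35.2 and at 236, 242 and 351 CPM. Both rose in lung, by 0.86 ± 0.19 (edgeR adjusted p = 0.002) and 1.42 ± 0.40 (edgeR adjusted p = 0.035). No difference between tissues is given for them, since it was not detectable at this depth. Areg, the growth factor amphiregulin, summed to 826 counts in lung and 29 in marrow, and its difference of -1.62 ± 0.71 did not pass (edgeR adjusted p = 0.291).

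Gene lists were described by their counts and medians beside those of all 1858 tested genes, of which 928 (49.9%) had a difference above 0, with a median of 0. Of all tested genes, 24 (1.29%) passed and 243 (13.1%) had an unadjusted p under 0.05 in edgeR. The list of ILC2 identity genes had 7 passing genes of 25 tested, 6 above 0 (Lmo4, Nfkb1, Icos, Ly6a, Satb1, Kit) and Ccr2 below, with 17 of 25 above 0 and a median of 0.43. The list of cytokine and alarmin receptors had 3 passing genes of 12, Ifngr1, Icos and Tnfrsf18, with 9 above 0. Its median effect was 0.54 in lung and -0.25 in marrow, and the median difference was 0.53. The costimulatory and inhibitory receptors had 4 of 14, of which Icos, Ly6a and Tnfrsf18 are also in other lists and Cd52 was below 0. Migration and adhesion genes had 1 of 14, Ccr2. Chemokine receptor Ccr9 had 2.23 ± 0.69 and the selectin ligand gene Selplg 0.82 ± 0.25, each with an edgeR adjusted p of 0.0886. Ccr9 summed to only 25 counts in lung against 883 in marrow, and its lung value of 1.82 ± 0.68 did not pass (edgeR adjusted p = 0.145).

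NF-kB genes had 2 passing genes of 11, Nfkb1 and Birc3, against 1.29% of all tested genes. Of the 11, 9 were above 0, with a median of 0.60. The feedback inhibitor Tnfaip3 (0.92 ± 0.29, edgeR adjusted p = 0.0893) and Nfkbiz (0.60 ± 0.24, edgeR adjusted p = 0.226) did not pass the difference, although Nfkbiz rose in lung by 0.64 (edgeR adjusted p = 0.00314). The list's median was 0.04 when low genes were kept, with more members in it. Immediate early genes, switched on within minutes of a stimulus, had 1 of 27, Jund. Of the 27, 21 were above 0 and the median effect was 0.46 in lung and -0.10 in marrow. Per1, a clock gene, had 1.44 ± 0.45 (edgeR adjusted p = 0.0886) and Junb 0.69 ± 0.23 (edgeR adjusted p = 0.111).

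The counts behind these lists differed strongly between the tissues. Several immediate early genes were nearly absent from marrow: Nr4a3 summed to 490 counts in lung and 0 in marrow, Fosb to 1010 and 1, Nr4a1 to 1537 and 11, and Egr1 to 191 and 14. Nr4a3, Fosb and Egr1 rose in lung CD45 KO (by 1.11, 0.73 and 2.24), and whether the effect differed in marrow was not detectable at this depth. Among the 27 members, 7 had at least 1 group at 0 counts, and without them 17 of 20 were above 0 with a median of 0.53. Over all tested genes, 27 (1.45%) had a group at 0. None of the 24 passing genes did, and they had at least 84 counts in marrow and 58 in lung.

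Many interferon response genes had the reverse imbalance of counts. The list had 20 tested members, 1 of which passed, Ly6a, with a difference above 0, whereas 17 of the 20 were below 0 and the median was -0.81. The median effect was -0.08 in lung and 0.68 in marrow, where 7 members passed as higher in CD45 KO, against 1.45% of all tested genes. Those 7 included the GTPases Igtp (1.30, edgeR adjusted p = 0.000239), Iigp1 (1.95, edgeR adjusted p = 0.000315) and Tgtp2 (0.93, edgeR adjusted p = 6.98e-06). In lung these had few counts, with Iigp1 at 2 summed over 6 libraries against 119 in marrow, Igtp at 8 against 191 and Tgtp2 at 20 against 567. Their differences had wide errors (Igtp -1.08 ± 1.10, Iigp1 -1.77 ± 2.35, Tgtp2 -1.57 ± 0.66) and none passed. Tgtp1 and Tgtp2 are near-identical copies and their split is uncertain. Summed over the list, CPM ran from 3010 to 3480 in lung controls and from 2960 to 3060 in lung CD45 KO, which overlapped. The sum ran from 5070 to 6020 in mature controls and 5130 to 7360 in mature CD45 KO, which overlapped, and from 5420 to 5730 and 7290 to 7870 in immature ILC2, which did not. Ly6e and Ly6a weighed most in these sums, with 1017 and 220 counts in lung and 1883 and 1194 in marrow. In lung their values had opposite signs (Ly6e -0.40 ± 0.14, Ly6a 1.07 ± 0.22), so the lung sum says little about the GTPases.

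**Figure D4:**
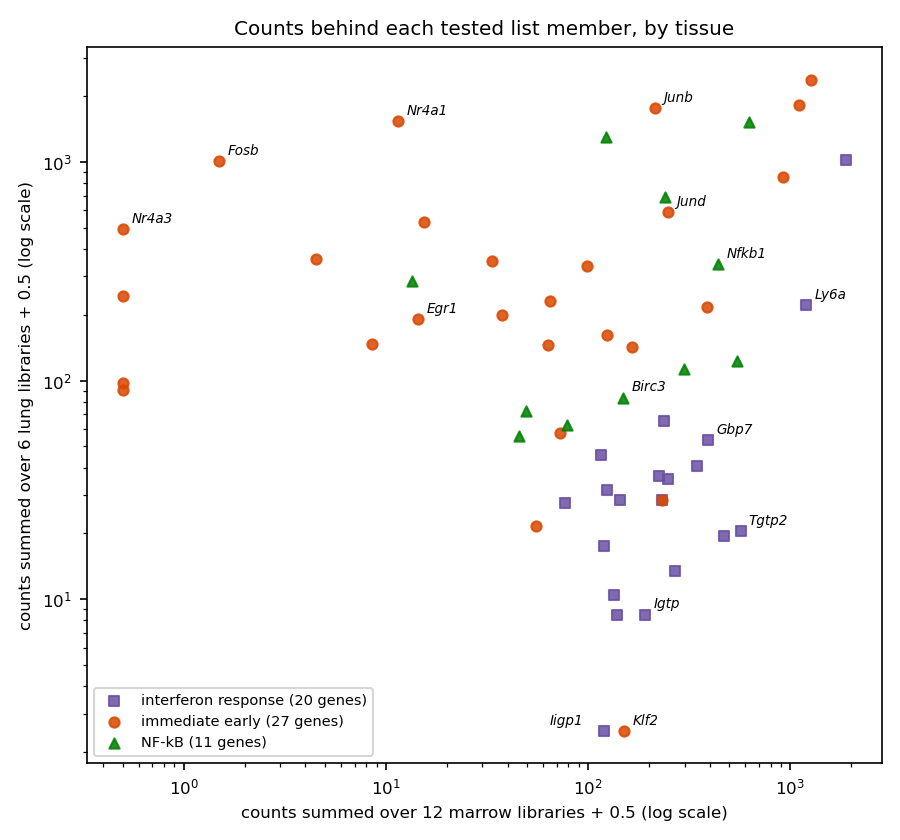
Counts summed over the 12 marrow libraries (horizontal axis, log scale, 0.5 added) and over the 6 lung libraries (vertical axis, log scale, 0.5 added) for the tested genes of 3 lists. Some immediate early genes, such as Nr4a3 and Fosb, had nearly all their counts in lung, and some interferon response genes, such as Iigp1 and Igtp, nearly all in marrow.

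The list of actin, tubulin and related genes had 3 passing genes of 31, against 1.29% of all tested genes. Vim and S100a4 were below 0 and Actg1 above, and 23 of the 31 were below 0, with a median of -0.27. Near the low end were Capg, a gelsolin family protein (-3.06 ± 0.89, edgeR adjusted p = 0.0583, 23 counts in marrow), the galectin Lgals1 (-1.79 ± 0.57, edgeR adjusted p = 0.0893) and S100a6 (-1.27 ± 0.42, edgeR adjusted p = 0.102). Heat shock and endoplasmic reticulum genes had 1 of 18, Hsp90aa1, with a median of -0.23. In marrow their median was 0.37, with Hsp90b1 (0.67) and Hspa8 (0.37) higher in CD45 KO, and in lung 0.06.

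Most ribosomal protein genes had small differences above 0. Of 78 tested, 74 had a difference above 0, with a median of 0.30, from 0.26 in lung and -0.03 in marrow. None passed in edgeR, where 35 had an unadjusted p under 0.05, against 13.1% of all tested genes. In the Wald test of DESeq2 15 passed, where 33 of all 1858 tested genes did. Rps7 (0.52 ± 0.15) and Rpl13 (0.50 ± 0.15) came nearest. Summed over the list, CPM ran from 175000 to 198000 in lung controls and from 216000 to 219000 in lung CD45 KO, and from 194000 to 249000 over the marrow libraries. Members share sequence with pseudogenes, and counts that add to a fixed total are not independent of each other. The translation factors, with 27 tested, had a median of 0.10, and the oxidative phosphorylation genes, with 46 tested, of -0.17. None of either passed in edgeR, where 6 and 5 had an unadjusted p under 0.05, against 13.1% of all tested genes.

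Src-family kinases and proximal signalling genes, the level at which CD45 acts, had 0 passing genes of 18 in edgeR, with 7 above 0 and a median of -0.11. An unadjusted p under 0.05 was found for 2 of the 18, against 13.1% of all tested genes. Fyn, a Src-family kinase, had -0.98 ± 0.43 (edgeR adjusted p = 0.293). The effector list had 0 of 13, and 4 of the 13 were at an unadjusted p under 0.05, against the same 13.1%. Of these 4, Csf2 was above 0 (0.93 ± 0.45), and Areg (-1.62 ± 0.71), Lif (-1.79 ± 0.89) and Csf1 (-1.12 ± 0.56) were below. Csf2, Areg and Lif summed to only 41, 29 and 19 counts over the 12 marrow libraries. In lists of other signalling feedback, glycolysis, glucocorticoid response, survival, proliferation and antigen presentation, none of the tested members passed either. Examples are Rgs1 (-0.99 ± 0.48), Socs1 (1.18 ± 0.50) and Ldha (0.57 ± 0.22), of which Rgs1 rose in both tissues (0.66 in lung, 1.65 in marrow) and Ldha in lung (0.72).

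**Figure D5:**
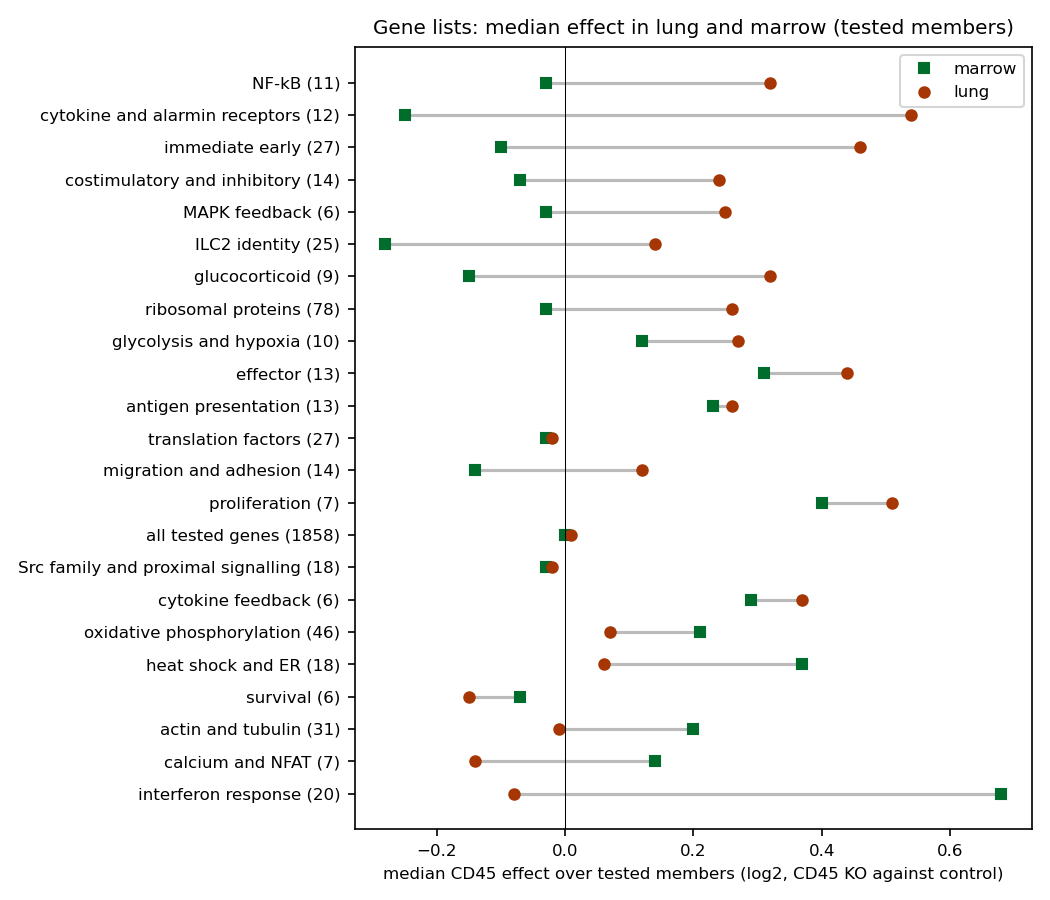
Median CD45 effect (log2, CD45 KO against control) over the tested members of each list with at least 6 of them, in lung (circles) and marrow (squares), with the number of tested members in parentheses. The widest gaps are those of the interferon response genes, higher in marrow, and of the cytokine and alarmin receptors and immediate early genes, higher in lung, while all tested genes sit at 0.01 and 0.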

How the data were processed

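Per the labels' protocols, RNA from sorted cells was reverse transcribed with an oligo-dT primer that carried a molecular barcode, a second primer site came from template switching, and ERCC spike-in RNA was added. STAR and mm10 are named in the submitters' processing notes. The counting tool, the annotation, the use of strand and the collapsing of barcodes were not given in the sources used here. Deposited by the authors were whole-number counts for 24781 gene entries, with no scaling between libraries. Of these, 11836 had no count, 26 had dates as names and 0 were ERCC entries, so RNA content could not be set against the spike-in.

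Members of the comparison, gene lists and tests were chosen with earlier results of these data known. Counts were scaled by TMM and filtered by filterByExpr (minimum count 10), which left 1916 genes, and 58 on X and Y were then left out. edgeR 4.0.16 in R 4.3.3 fitted 6 group means over 18 libraries, and contrasts were tested by quasi-likelihood F tests, with p-values adjusted by Benjamini-Hochberg over 1858 genes and a threshold of 0.05. The SE is the absolute log2 value divided by the square root of F, which is unreliable where both are near 0. The common dispersion had a square root of 0.0973. A total of 3 counts, the limit that a count of 0 allows, came to at most 44.7 CPM, and this covers counting error only. Positions come from GENCODE M21, where 98.4% of tested genes matched 1 entry.

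Genes named are Ptprc, an ILC2 panel, passing genes up to 25 by p, and members of 22 lists that passed or, where none did, up to 2 with the smallest p. Some of these genes are not reported here. Further members are named to show the range of a list, or their counts, and were picked with their values in view. Tried as alternatives were the size factors and Wald test of DESeq2 1.42.0, no filter, at least 10 counts in 3 libraries, a replicate block, X and Y kept, Rn45s and Rn4.5s left out, 4 group means, and each library left out. Leaving out mature control 1, mature CD45 KO 1 and lung CD45 KO 1 together was chosen after seeing the data. Replicate numbers were not used as pairs, except in the replicate block. On simulated counts for this contrast (1871 genes, dispersion 0.01 for every gene), 92.6% of 95 changes of 4-fold and 50.5% of 97 changes of 2-fold were recovered, with 4 false calls. The changes were placed in lung CD45 KO only and in genes with a mean of at least 10 counts per library. Recovery for genes with fewer counts was not tested.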

Additional observations from a re-analysis of the deposited data

Results flagged for a closer look

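Each of the 23 genes below is listed because its CD45 effect differed between lung and the mean of both marrow stages by a test of the difference itself (edgeR adjusted p under 0.05). No explanation was tested for any of them, and tissue and sex cannot be told apart.

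Lmo4 (1.55), Vim (-1.48), S100a4 (-1.10), Pisd-ps3 (-1.70), Actg1 (0.75) and Nfkb1 (0.93) kept their call whichever library was left out, with a highest edgeR adjusted p of 0.0476 among them, for Nfkb1. Under other settings, Vim, Pisd-ps3 and Nfkb1 lost it in the Wald test of DESeq2, and Actg1 and Nfkb1 with no filter. Actg1 also lost it without the 3 libraries left out together. Among the 18 fits that left out 1 library, Rexo2 (-2.03) lost its call only without lung CD45 KO library 3 (edgeR adjusted p = 0.0528). Ifngr1 (1.62) lost it there only without mature control library 1 (edgeR adjusted p = 0.0857). Gpr132 (1.37) lost it without lung control library 3 or lung CD45 KO library 1 (highest edgeR adjusted p = 0.0523). Jund (0.96) lost it without mature control library 3, lung control library 2 or lung CD45 KO library 1 (highest 0.0699), and Ly6a (0.97) without lung control library 2 or lung CD45 KO libraries 1 or 2 (highest 0.111). Tnfrsf18 (1.10) lost it without immature control library 1, lung control library 2 or lung CD45 KO libraries 2 or 3 (highest 0.121).

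Birc3 (1.59) lost its call without immature control library 1, lung control libraries 2 or 3, or lung CD45 KO libraries 1 or 2 (highest edgeR adjusted p = 0.0898). Icos (1.0) lost it without mature control library 2, mature CD45 KO library 2, immature control library 1, lung control library 2 or lung CD45 KO library 1 (highest 0.0657). The other 9 genes lost it in 7 to 13 of the 18 fits: Ikzf3 (1.80) in 7, Rps27rt (0.56) in 8, Satb1 (1.62) in 9, Cd52 (-0.76) in 10, Ccr2 (-0.77) in 11, D17H6S56E-5 (0.52) and Shisa5 (0.63) in 12, and Kit (1.38) and Hsp90aa1 (-1.15) in 13. Their highest edgeR adjusted p ran from 0.0895 for Kit to 0.337 for Hsp90aa1, and their direction was the same in each fit.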

How the results depend on the processing

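The 24 genes of the lung against marrow contrast (16 above and 8 below 0, 66.7% above) became 26 with the size factors of DESeq2 (20 and 6, 76.9%), 28 with the stricter filter (21 and 7, 75.0%), 33 in the Wald test of DESeq2 (29 and 4, 87.9%; 12 shared), 17 with 4 group means and 9 with no filter, where 12505 genes were tested and the median of all genes was -0.144. The count was 14 without the 3 doubted libraries (11 shared) and 9 to 34 when 1 library was left out, with the highest without mature CD45 KO library 1. With the replicate block it was 22, all shared. Same-numbered libraries did not deviate together (45 pairs, correlations from -0.09 to 0.075, 0 above 0.1). At a median of 12.6 counts per library, counting error could hide a shared mouse, so these correlations cannot decide whether the libraries are paired. Lmo4 and S100a4 kept their call in every fit run.

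For lung alone, 48 genes became 22 with no filter and 27 to 91 with 1 library left out. For marrow, 55 became 16 in the Wald test and 34 to 88. Lung minus mature went from 6 to 10 in the Wald test and 1 to 14 with 1 library left out, and lung minus immature from 7 to 20 and 2 to 9. Mature minus immature stayed at 0.

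Some values of genes that did not pass changed sign, and not all of these were near 0. Ptprc ran from -0.29 to 0.26 with 1 library left out, and was 0.02 with the size factors of DESeq2 and in its Wald test, 0.03 with the stricter filter and 0.38 without the 3 libraries. Il7r ran from -0.19 to 0.06 with 1 left out and was 0.14 without the 3. With 1 left out, H2-T22 (0.95 in the main fit) ran from -0.20 to 1.35, Cdkn1a (-0.86) from -1.32 to 0.02 and Hmgb2 (0.30) from -0.17 to 0.60. The cause was not tested for any of these, beyond the larger number of genes tested with no filter. Depth limits genes with few counts in 1 tissue, the cytokine, immediate early and interferon response genes above all.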
